A study of Ovis aries with 10 samples.

Results

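Transcripts of 10 genes used as markers of the choroid plexus (TTR, KL, FOLR1, CLIC6, KCNJ13, AQP1, OTX2, SLC4A5, CLDN2 and F5) were followed in the mediobasal hypothalamus of ewes. The genes were picked by symbol, and all 10 were found among the 33775 genes of the count table. RNA came from adult Ile-de-France ewes, 10 in the luteal phase, when progesterone is high, and 10 in the follicular phase. For each library, equal amounts of RNA from 2 ewes of a phase, drawn at random, were mixed. This gave 5 luteal and 5 follicular libraries, and every ewe belonged to 1 phase. A library therefore averages over 2 animals, and the labels name no treatment, genotype or batch. The comparison is luteal against follicular phase, and the question asked of the markers was whether they rise and fall together from library to library.

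The choroid plexus is a folded epithelium on a vascular core that hangs in the brain ventricles and secretes cerebrospinal fluid. Its epithelial cells make transthyretin for export, carry folate into the fluid and move water, chloride, potassium and bicarbonate across their membranes. The mediobasal hypothalamus borders the third ventricle, so a dissected block can hold ventricular lining and, where it is attached, plexus tissue. Several of the genes are also made elsewhere: AQP1 is also made by some blood vessels and red cell precursors, OTX2 by the pineal gland and retina, and TTR and F5 by the liver. In bulk tissue, fewer cells of a type and less RNA per cell cannot be told apart.

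Luteal libraries held 28571863 to 42358557 reads and follicular libraries 20644992 to 43193449 reads. Genes of the mediobasal hypothalamus were present in every library, among them POMC at 404.6 to 1077 CPM in luteal and 515.6 to 1371 CPM in follicular libraries. CPM are reads scaled to a common library total and are not corrected for gene length, so levels are compared between libraries and not between genes. The libraries differed along 1 broad axis: the first principal component of all genes held 51.0% of the variance, with follicular 1 and 3 (also the shallowest libraries) at 1 end and luteal 5, follicular 5 and luteal 3 at the other. It correlated with the library total at r = 0.63, and what it stands for was not tested.

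Of the 10 markers, 8 had enough reads to be tested. None passed edgeR's quasi-likelihood test between phases after adjustment over the 18276 genes tested (threshold 0.05), where the share called over all genes was 0%. Unadjusted, 1 of the 8, SLC4A5, was under 0.05 and higher in luteal libraries, against 4.27% of all genes, and 0 were under 0.05 and lower, against 7.12%. With DESeq2, 0 of the 8 passed after adjustment, against 0.0766% of all genes higher and 0.0821% lower in luteal libraries. The fold changes of all 8 were above 0, against 51.5% of all genes, and their median log2 fold change was 0.63, against 0.01 over all genes. Without follicular 1 and 3 the median was 0.32. The 8 are those that passed the filter on low counts, so these figures do not describe all 10.

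Among the transporters, SLC4A5, a sodium bicarbonate cotransporter of the plexus epithelium, had the smallest p of the markers between phases. Luteal libraries 1 to 5 had 2.56, 2.35, 3.03, 2.08 and 3.01 CPM, and follicular libraries 1 to 5 had 1.43, 1.25, 0.637, 0.787 and 1.92 CPM. Every luteal library lay above every follicular library, as they did for 0.607% of all genes tested. The mean was 2.61 ± 0.415 CPM in luteal and 1.2 ± 0.514 CPM in follicular libraries (SD, n = 5 each). The log2 fold change was 1.09 (SE 0.29, 95% interval 0.47 to 1.71), with an edgeR unadjusted p of 0.00255 and an adjusted p of 0.426, and DESeq2 gave an adjusted p of 0.0712. Over all alternatives the adjusted p ran from 0.0606 to 0.994. With scaling by the library total alone, the lowest luteal library (luteal 4, 2.01 CPM) fell below the highest follicular library (follicular 5, 2.04 CPM), and the groups overlapped. In the assembly table the gene overlaps LOC101106158, which had 0 to 3 reads per library.

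AQP1, the aquaporin that lets water through the apical membrane of the plexus, spread widely among follicular libraries. It had 3.76, 5.59, 5.06, 5.97 and 8.41 CPM in luteal libraries 1 to 5, against 0.819, 3.92, 0.637, 1.80 and 6.90 CPM in follicular libraries 1 to 5. Follicular 1 and 3 were the lowest of all 10 and follicular 5 the second highest, so the phases overlapped. The log2 fold change was 0.99 (SE 0.53, interval -0.18 to 2.15; edgeR adjusted p = 0.432). It was 1.64 without follicular 5 (edgeR adjusted p = 0.0606) and 0.45 without follicular 1 and 3 (0.994).

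KL, which encodes klotho, a membrane protein that is also shed into cerebrospinal fluid, had the same pair of lowest libraries. Luteal libraries 1 to 5 had 3.32, 7.22, 5.83, 5.57 and 6.22 CPM, and follicular libraries 1 to 5 had 2.2, 4.84, 1.11, 3.33 and 7.45 CPM. The lowest was again follicular 3 and the highest follicular 5, and the phases overlapped. For KL the log2 fold change was 0.55 (SE 0.41, interval -0.34 to 1.43; edgeR adjusted p = 0.498). It was 0.95 without follicular 5 and 0.11 without follicular 1 and 3.

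F5, coagulation factor V, a plasma cofactor whose transcript is also found in plexus epithelium, had a different low library in the luteal phase. Luteal libraries 1 to 5 had 19.1, 25.7, 7.22, 32.3 and 20.6 CPM, and follicular libraries 1 to 5 had 4.30, 12.1, 4.67, 22.1 and 21.3 CPM. Luteal 4 was highest and luteal 3 lay among the low follicular libraries. For F5 the log2 fold change was 0.69 (SE 0.49, interval -0.38 to 1.76; edgeR adjusted p = 0.485), and 0.18 without follicular 1 and 3.

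TTR, the carrier of thyroxine and retinol-binding protein that the plexus exports, had another order of libraries. It had 22.1, 22, 46.7, 94.2 and 19.6 CPM in luteal libraries 1 to 5, from 831 to 3855 reads. In follicular libraries 1 to 5 it had 41.0, 9.61, 49.5, 16.9 and 20.6 CPM, from 262 to 947 reads. Luteal 4 stood at 4.28 times the median of the other 9 libraries and 1.9 times the next highest, follicular 3. The mean was 40.9 ± 31.8 CPM in luteal and 27.5 ± 16.9 CPM in follicular libraries (SD, n = 5 each). For TTR the log2 fold change was 0.58 (SE 0.52, interval -0.55 to 1.71; edgeR adjusted p = 0.56). Without luteal 4 it was 0.0063 (edgeR adjusted p = 0.995), and without follicular 1 and 3 it was 1.38 (0.994).

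KCNJ13, the inward rectifier potassium channel Kir7.1 of the apical membrane, was sparse. It had 3, 6, 19, 40 and 17 reads in luteal libraries 1 to 5, against 1, 2, 7, 4 and 15 reads in follicular libraries 1 to 5. As with TTR, luteal 4 was highest, and luteal 3 came next. The mean was 0.444 ± 0.366 CPM in luteal and 0.195 ± 0.147 CPM in follicular libraries (SD, n = 5 each), with a log2 fold change of 1.12 (SE 0.68, interval -0.36 to 2.61; edgeR adjusted p = 0.447). In the assembly table KCNJ13 overlaps GIGYF2, whose 1445 to 4070 reads per library averaged 80.9 ± 10.5 CPM in luteal and 76.9 ± 4.33 CPM in follicular libraries. The strand setting of the counting was not given in the sources used here, so reads of the pair may not be fully separated.

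FOLR1, the folate receptor alpha that takes folate through the plexus epithelium, varied least. It had 1.76, 1.5, 1.42, 2.47 and 0.965 CPM in luteal libraries 1 to 5, against 1.9, 1.58, 1.22, 1.99 and 1.24 CPM in follicular libraries 1 to 5. The highest and the lowest library were both luteal, luteal 4 and luteal 5. The log2 fold change was 0.04 (SE 0.27, interval -0.55 to 0.63; edgeR adjusted p = 0.947), and its sign turned when luteal 4, follicular 3 or follicular 5 was left out (-0.16, -0.04 and -0.04).

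CLIC6, an intracellular chloride channel protein, was high in a pair of follicular libraries. It had 4.00, 6.65, 9.44, 9.58 and 8.36 CPM in luteal libraries 1 to 5, against 3.79, 4.11, 4.72, 12.9 and 11 CPM in follicular libraries 1 to 5. Follicular 4 and 5 were the highest of all 10, and the luteal values lay within the follicular range. The log2 fold change was 0.05 (SE 0.38, interval -0.77 to 0.87; edgeR adjusted p = 0.953), and its sign turned when any of luteal 3, luteal 4 or follicular 1 to 3 was left out (-0.11 to -0.03).

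The remaining markers were near the limit of detection and were not tested. OTX2, a homeodomain transcription factor that plexus epithelium keeps throughout life, had 2 to 11 reads in luteal libraries and 2 to 9 reads in follicular libraries. Its highest level was in luteal 4 (11 reads, 0.269 CPM), the library that was also highest for TTR, KCNJ13, FOLR1 and F5. CLDN2, the claudin of the leaky tight junctions between plexus cells, had 0 to 3 reads in luteal and 0 to 2 reads in follicular libraries, at or under a floor of 3 reads, and no fold change is given. Another gene expressed in plexus epithelium, the potassium channel subunit KCNE2, had 0 to 4 reads per library.

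**Figure D1:**
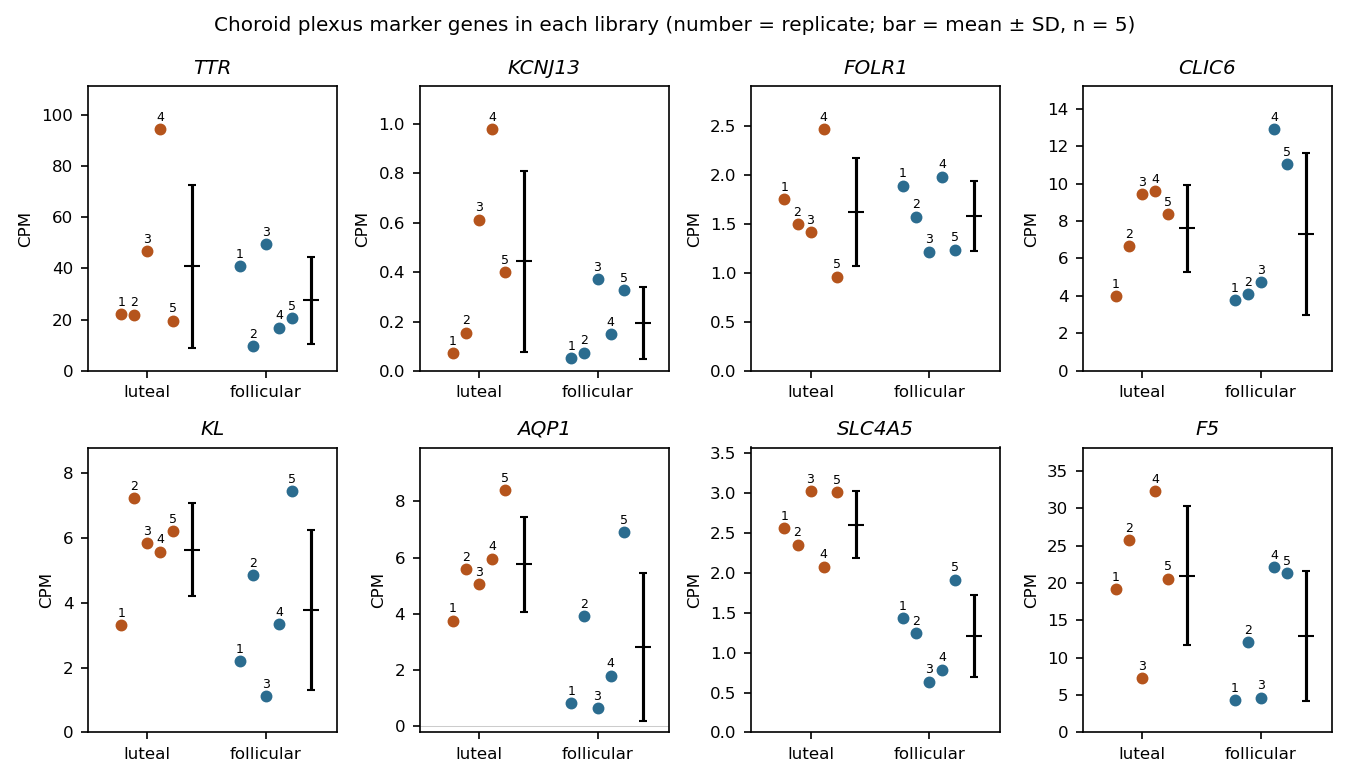
CPM of the 8 tested markers (y axes, linear) in each luteal and each follicular library; numbers are replicates, and bars are the mean ± SD over 5 libraries. Luteal 4 is the highest library for TTR, KCNJ13, FOLR1 and F5, and SLC4A5 is the marker whose phases do not overlap, at 2.08 to 3.03 CPM in luteal and 0.637 to 1.92 CPM in follicular libraries.

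**Figure D2:**
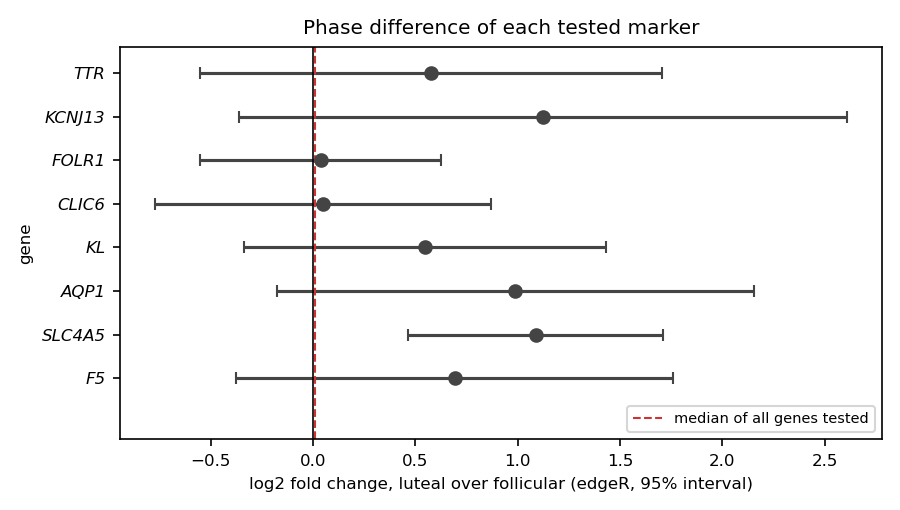
Log2 fold change of luteal over follicular phase for the 8 tested markers (x axis), with 95% intervals derived from edgeR's F-test. The dashed line is the median of all genes tested (0.01). The points run from 0.04 for FOLR1 to 1.12 for KCNJ13, and the interval of SLC4A5 (0.47 to 1.71) is the one that leaves out 0.

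The 8 tested markers did not all rise and fall together. Over their 28 pairs, the Pearson r of log2 CPM across the 10 libraries ran from -0.25 to 0.94 with a median of 0.25. Of these pairs, 20 were above 0 and 8 below. The median r of each marker with all genes tested lay between -0.02 (TTR) and 0.03 (SLC4A5). These medians do not show how far single values spread to both sides of 0. Over all genes the median absolute r with the first principal component was 0.72. They therefore do not tell whether 0.25 is above the background. With each phase's mean subtracted, which takes out any shared phase difference, the median r of the pairs was 0.07. Low counts, such as the 1 to 40 reads of KCNJ13, add noise, so a weaker shared movement over 10 libraries may be missed. After adjustment over the 28 pairs, 1 pair passed 0.05, KL with AQP1. Each p below comes from a two-sided permutation test with 100000 shuffles. Within 1 phase there are 5 libraries, too few for a correlation of their own.

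KL and AQP1 correlated at r = 0.94 (permutation p = 6.0e-05, adjusted p = 0.00168) and Spearman's rho = 0.90 (permutation p = 0.00107, adjusted p = 0.03). Without the pair of libraries farthest from the median of KL, follicular 1 and 3, r was 0.83, and with phase means subtracted it was 0.93. Values this high were also seen with other genes: among the 18275 others tested, KL stood at 335 by r with AQP1 and AQP1 at 174 by r with KL, so 1.83% and 0.947% had a higher r. AQP1 also had an r of 0.79 with SLC4A5 (rho = 0.62; permutation p = 0.00854 for r and 0.0587 for rho) and 0.74 with F5 (rho = 0.60; permutation p = 0.0145 and 0.0724). KL had an r of 0.73 with SLC4A5 (rho = 0.54; permutation p = 0.0151 and 0.113) and 0.70 with F5 (rho = 0.59; permutation p = 0.0216 and 0.0804). For these 4 pairs the adjusted p was 0.106 to 0.121 for r and 0.358 for rho. Without follicular 1 and 3, r was 0.78 for AQP1 with SLC4A5 and 0.49 for KL with SLC4A5. It was 0.09 for AQP1 with F5 and 0.04 for KL with F5, so these last relations were not seen among the remaining libraries. Over all 10 libraries with phase means subtracted, r was 0.67 for AQP1 with F5 and 0.62 for KL with F5. With the first principal component removed from each gene it was 0.86 and 0.69. SLC4A5 with F5 was lower, at r = 0.38 (rho = 0.16; permutation p = 0.28 for r and 0.658 for rho) and 0.04 with phase means subtracted, so these 4 genes did not all move together.

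Over all 10 libraries, TTR had low or negative correlations with most of the others. Its r was -0.25 with KL, -0.21 with AQP1, -0.22 with F5, 0.07 with SLC4A5, 0.10 with CLIC6, 0.33 with FOLR1 and 0.63 with KCNJ13. The adjusted p of these 7 pairs was 0.226 or higher by permutation test. For TTR with KCNJ13, rho was 0.43 (permutation p = 0.0506 for r and 0.219 for rho). With phase means subtracted r was 0.59, and without 1 library at a time it ran from 0.41 to 0.83. It was 0.23 without luteal 4 and follicular 2, so its size, but not its sign, depended on the libraries included. Without the same pair of libraries, r with TTR was -0.55 for KL, -0.56 for AQP1 and -0.94 for F5. Without follicular 1 and 3 the sign turned, with r = 0.20 for KL, 0.30 for AQP1 and 0.17 for F5. The other pairs were also above 0 there, at 0.84 for KCNJ13, 0.43 for SLC4A5, 0.43 for FOLR1 and 0.39 for CLIC6. The adjusted p of these 7 pairs was then 0.0861 or higher by permutation test. The direction of the relations of TTR with KL, AQP1 and F5 thus depends on which libraries are included. Follicular 3 shows the contrast most plainly: it had the second highest TTR level of the 10 libraries and the lowest levels of KL, AQP1 and SLC4A5. Follicular 2 had the lowest TTR level and the sixth highest of KL and AQP1. Among the 18275 other genes tested, ranked by r with TTR, KCNJ13 stood at 150, FOLR1 at 2215, CLIC6 at 6714, SLC4A5 at 7337, AQP1 at 13213, F5 at 13515 and KL at 14368.

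**Figure D3:**
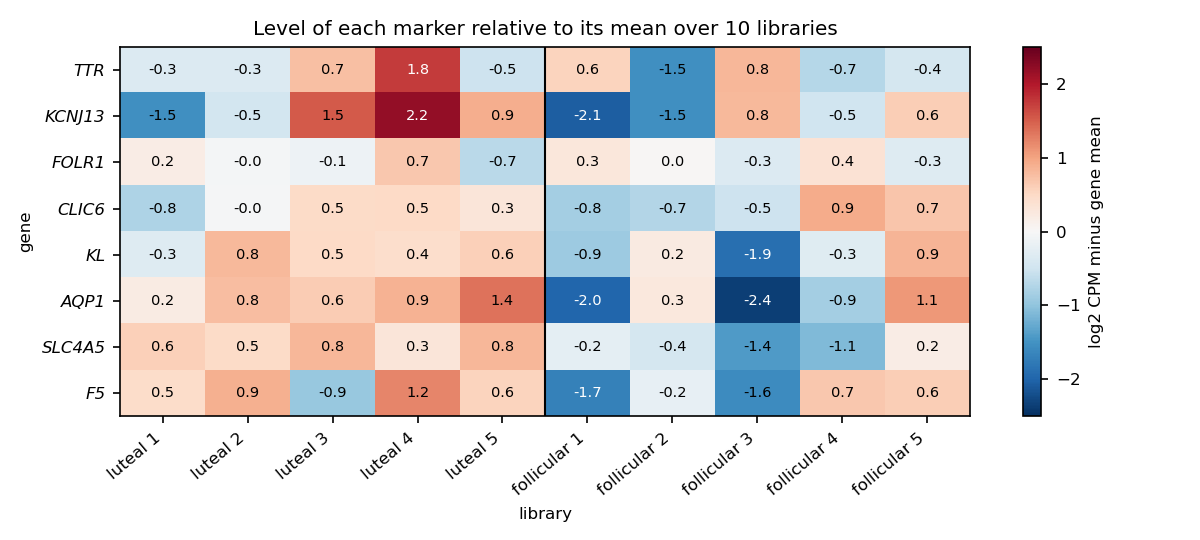
Log2 CPM of each tested marker (rows) in each library (columns, luteal left of the line and follicular right of it), minus the marker's mean over 10 libraries. Luteal 4 is high for TTR and KCNJ13, and follicular 3 combines high TTR (49.5 CPM) with the lowest KL, AQP1 and SLC4A5.

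**Figure D4:**
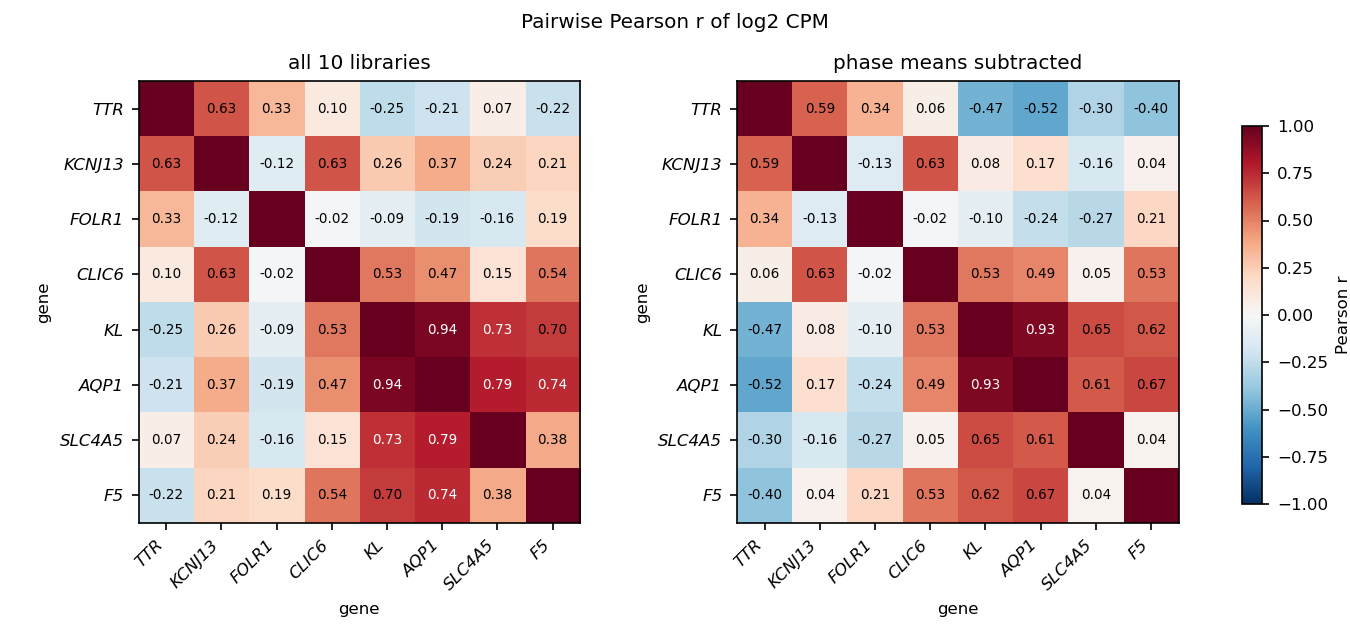
Pearson r of log2 CPM for each pair of tested markers over 10 libraries (left) and after subtraction of the phase means (right). KL with AQP1 is the highest pair at 0.94 and 0.93, and TTR has values below 0 with KL, AQP1 and F5 in both panels.

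The ratio of each marker to TTR, which stays level where a pair of genes changes by the same fold, varied from library to library. AQP1 over TTR ranged from 0.0633 to 0.430 in luteal libraries and from 0.0129 to 0.408 in follicular libraries, a 33.4-fold range over all 10. KL over TTR ranged from 0.0591 to 0.328 in luteal and from 0.0225 to 0.504 in follicular libraries, a 22.4-fold range. FOLR1 over TTR had the narrowest range, 6.66-fold, and FOLR1 itself ranged 2.56-fold. For 6 of the 7 markers the SD of the log2 ratio to TTR (0.91 to 1.77) was larger than the SD of the marker's own log2 CPM (0.39 to 1.30). KCNJ13 was the exception, at 1.17 for the ratio and 1.43 for the marker, with a slope of 0.88 on log2 TTR. A marker that moves with TTR over a smaller range can also have the larger SD for its ratio. For FOLR1 that outcome was fixed beforehand, since its own SD was 0.39 and that of log2 TTR was 0.95. KL over AQP1 ranged 3.63-fold, with an SD of the log2 ratio of 0.56.

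The markers also differed in how they followed the broad axis of the libraries. AQP1 (r = 0.90), KL (0.87) and SLC4A5 (0.78) had high correlations with the first principal component, CLIC6 (0.49), F5 (0.45) and KCNJ13 (0.41) lower ones, and TTR (-0.21) and FOLR1 (-0.50) were below 0. These carry no p, since the component was computed from the same counts. Such values were common: 13.0% of all genes had a higher r than AQP1 and the median absolute r over all genes was 0.72. In a fit with this component as a further term, tried after seeing the data, the log2 fold change was 0.10 for KL, 0.53 for AQP1, 0.81 for SLC4A5 and 1.11 for TTR, and none passed (edgeR adjusted p from 0.422 to 0.946). With the component removed from each gene, r was 0.73 for KL with AQP1 and 0.81 for TTR with KCNJ13. These values also carry no p, since the component removed came from the same counts. The pair of TTR and KCNJ13 includes a gene with 1 to 40 reads per library. Other pairs were as high or nearly so with the component removed. AQP1 with F5 was at 0.86, KL with FOLR1 at 0.81 and FOLR1 with AQP1 at 0.69, against 0.74, -0.09 and -0.19 with it kept.

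TTR, KCNJ13, AQP1 and F5 were also among the more variable genes of the table. The SD of log2 CPM within a phase was 0.97 for TTR, 1.05 for KCNJ13, 1.04 for AQP1 and 0.99 for F5, where the median over all genes was 0.31. For each of these 4, between 98.2% and 98.7% of all genes had a lower SD. KL had 0.79, CLIC6 0.69, SLC4A5 0.46 and FOLR1 0.40, also above the median. For these, 95.9%, 92.8%, 75.8% and 67.2% of all genes had a lower SD. The SDs were not set against genes of like read number, and KCNJ13 had only 1 to 40 reads per library.

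A wider list of 36 genes expressed in plexus epithelium, many of which other brain cells also use, was measured beside the markers. Of 33 tested members 22 were higher and 11 lower in luteal libraries without passing, and the median log2 fold change was 0.16. No member passed edgeR over all genes, and 1 of 33, MFRP, was higher and under 0.05 unadjusted, where the share over all genes was 4.27%. MFRP, a frizzled-related membrane protein, averaged 0.722 ± 0.505 CPM in luteal and 0.171 ± 0.234 CPM in follicular libraries (log2 fold change 1.80, SE 0.72, edgeR adjusted p = 0.426). Like KCNJ13 it was sparse, at 1 to 61 reads per library, so its fold change rests on few reads. The phases overlapped, at 0.146 to 1.49 CPM in luteal and 0.0367 to 0.588 CPM in follicular libraries. Next by p came CA2, a carbonic anhydrase (log2 fold change 0.34, SE 0.16), and MSX1, a homeobox factor (0.26, SE 0.13). The median r of the 33 genes was 0.01 with TTR and 0.40 with AQP1. Outside the naming rule, TMEM72 and WFIKKN2 were picked after their values were seen. TMEM72, a membrane protein typical of plexus, had 3.25 to 6.47 CPM in luteal and 4.55 to 5.69 CPM in follicular libraries, with r = -0.16 to TTR. WFIKKN2, a secreted inhibitor of growth and differentiation factors, had 1.44 to 2.93 CPM in luteal and 1.59 to 2.02 CPM in follicular libraries (r with TTR 0.58).

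**Figure D5:**
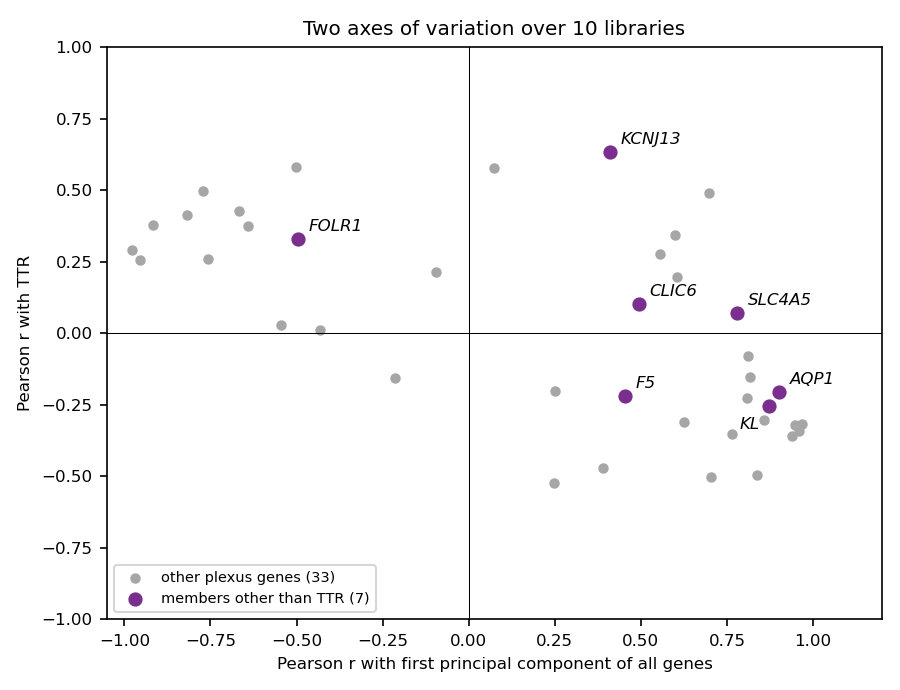
Pearson r over 10 libraries with the first principal component of all genes (x axis) and with TTR (y axis), for the 7 tested markers other than TTR (purple, named) and 33 other plexus genes (grey). AQP1 and KL lie far right and below 0 on the TTR axis, and KCNJ13 is the highest of all points at 0.63.

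Markers of other cells that could carry these transcripts were measured beside them, and their part in the results was not tested. Of 12 endothelial genes 9 were higher and 3 lower in luteal libraries without passing. The smallest p were those of CDH5, TEK and KDR (log2 fold change 0.54, 0.72 and 0.36; edgeR adjusted p = 0.426 each), whose r with AQP1 was 0.94, 0.92 and 0.87. Other endothelial genes had values below 0, down to -0.81 for EGFL7 and -0.70 for CLDN5, and the median r of the 12 with AQP1 was 0.29. The summed endothelial level was 496.2 to 691.7 CPM in luteal and 532.3 to 749.1 CPM in follicular libraries. Red cell genes were at or near 0: ALAS2 had 0 reads in every library, and of the 5 genes of that list in the table AHSP alone was tested (log2 fold change -0.25). For the pineal gland and retina, PDC had 0 reads and CRX at most 1, and of 4 tested genes 1 was higher and 3 lower without passing, with AANAT, TPH1 and GNGT1 first by p (-0.91, 0.86 and -0.28). The summed level of that list was 5.66 to 12.8 CPM in luteal and 5.38 to 18.0 CPM in follicular libraries.

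For the ventricular lining, 6 of 12 genes of ciliated ependyma were higher and 6 lower in luteal libraries without passing, with CCDC153, RSPH1 and SPAG6 first by p (log2 fold change -0.47, -0.33 and 0.29). Their summed level was 193.7 to 246.6 CPM in luteal and 185.4 to 291.8 CPM in follicular libraries, and their median r with TTR was -0.18. Of 9 tanycyte genes 6 were higher and 3 lower without passing (DIO2 -0.65 and VIM 0.23), with a median r with TTR of 0.20. Of 12 genes of leptomeninges and fibroblasts 10 were higher and 2 lower without passing (ALDH1A2, LUM and COL3A1; 0.30, 0.48 and 0.29). That list had a median r of 0.64 with AQP1 and -0.07 with TTR, and a summed level of 773.5 to 982.1 CPM in luteal and 742.1 to 949.7 CPM in follicular libraries.

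None of the genes of the remaining lists passed over all genes either. Brackets hold genes among the first by p, each with its own log2 fold change. The median log2 fold change was 0.08 for 8 mural cell genes (NOTCH3 0.43, PDGFRB 0.30 and KCNJ8 -0.39). It was -0.02 for 10 genes of the pars tuberalis and pituitary (CGA -0.60 and FSHB 1.07). For 8 neuronal genes it was 0.04 (RBFOX3 -0.45, STMN2 -0.29 and SNAP25 0.30). For 7 astrocyte genes it was 0.12 (GJA1 0.65, ALDOC -0.38 and GFAP -0.35). For 7 oligodendrocyte genes it was -0.35 (MOBP -0.35, CLDN11 0.42 and CNP -0.38). It was -0.11 for 8 genes of microglia and macrophages (AIF1 -0.52, C1QB -0.40 and CX3CR1 0.38). It was -0.09 for 12 genes of the mediobasal hypothalamus (TBX3 0.59, GHRH -0.55 and KISS1 -0.66). The median r of these lists with TTR ran from -0.39 for neurons to 0.09 for mural cells.

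Outside the listed markers, the genes whose level over the 10 libraries was most like the mean of the 8 markers were LOC101120607, EPHA2, PROM2, DLST, SEC16A, EZR, SETD1A, PRPF4, PABIR1 and H3F3A, with r from 0.93 to 0.95. Their r with the first principal component was 0.51 to 0.80, and 0.66 for the mean of the markers itself. For TTR alone they were STAB1 (r = 0.89, rho = 0.71), GALNT5 (0.88, 0.85), COL23A1 (0.84, 0.81), LOC105613248 (0.83, 0.76) and SNX11 (0.82, 0.61). They were chosen as the highest among the genes averaging at least 1 CPM, and carry no p. STAB1, a scavenger receptor, averaged 49.8 ± 9.04 CPM in luteal and 47.7 ± 10.8 CPM in follicular libraries (SD, n = 5 each; edgeR adjusted p = 0.851).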

How the data were processed

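The deposited table holds raw counts of reads for each gene in 10 libraries, made by the authors from TruSeq stranded mRNA libraries of TriReagent-extracted RNA, per the labels' protocols. The tools named are featureCounts 2.0.0, SAMtools 1.9, TopHat2 2.1.1, Bowtie2 2.3.5.1, FastQC and bcl2fastq 2.20, per the submitters' processing notes. Their order and settings, the strand option and the genome build are not given in the sources used here.

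Counts were tested with edgeR 4.0.16 in R 4.3.3 (quasi-likelihood F-test, phase as the only term) after filterByExpr (minimum count 10, minimum total 15) and TMM scaling, with Benjamini-Hochberg adjustment over 18276 genes. Fold changes are luteal over follicular. CPM use the TMM-scaled total of each library over the tested genes. Over all genes of the count table the totals were 20644992 to 43193449 reads. The spread behind each p-value is that between mixes of ewes. Correlations were taken on log2 CPM (prior count 2), computed in Python 3.11.15 with permutation p-values. The tests were run first on simulated data. Of 33775 gene identifiers 94.4% were in the table of assembly ARS-UI_Ramb_v3.0, used for names and overlaps; FOLR1's was not. Of 168 listed genes, the markers included, 163 were in the count table, 8 of them under a LOC identifier there.

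The members and lists were chosen with earlier results of these data known. All members are named, with the 3 genes of smallest p in each other list and the genes most alike in pattern (10 for the mean, 5 for TTR); some genes that this rule names are not reported here. No pair of libraries agreed within sampling noise. Alternatives were RLE scaling, other filters, DESeq2 1.42.0, limma-voom 3.58.1, a replicate block, leaving out libraries, and other scales and centrings of the correlations; those with the first principal component were added after seeing the data. A promoter motif that had been planned was not analysed here.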

Additional observations from a re-analysis of the deposited data

Results flagged for a closer look

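Levels of each marker and list were screened for libraries that stood apart from the other 4 of their phase, by Dixon's test at 95% (the distance to the closest value as a share of the whole range). This was the case in 6 of 52 groups of libraries, where chance gives about 1 in 20, or 2.6. No single marker was among them, but their summed level was.

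The summed level of the 10 markers was highest in luteal 4, at 153.5 CPM against 79.4 CPM in the next luteal library (0.767), and TTR made up 94.2 CPM of it. The summed level of the wider plexus list was highest in luteal 4, at 3595 CPM against 3121 CPM in the next luteal library (0.723), and in follicular 4, at 3407 CPM against 3083 CPM in the next follicular library (0.78). Abundant genes that other brain cells may also use weigh most in this sum. SPINT2 had 517.6 to 800.5 CPM in luteal libraries, against 3.25 to 6.47 CPM for TMEM72. The leptomeningeal and fibroblast list was lowest in luteal 1, at 773.5 CPM against 928.0 CPM (0.741). The mediobasal hypothalamus list was lowest in luteal 5, at 1495 CPM against 1914 CPM (0.823). The astrocyte list was lowest in follicular 5, at 4547 CPM against 5444 CPM (0.716).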

How the results depend on the processing

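No marker passed the threshold under any of 138 member fold changes computed under alternatives (lowest adjusted p 0.0606, without follicular 5), and 11 changed sign. Without 1 library at a time, the log2 fold change ran from -0.16 to 0.18 for FOLR1 and from -0.11 to 0.35 for CLIC6, and the median over the markers from 0.48 to 0.95. CLIC6 was -0.29 without follicular 1 and 3 together and -0.25 with the principal component in the fit. With the replicate number as a block, FOLR1 was -0.0029, the median was 0.78 and 0 genes were called. Deviations of same-numbered libraries correlated from -0.33 to 0.63, and 1 of 5 was best with its own number. With scaling by library total alone, 0 markers had phases that did not overlap, against 1. The correlation of TTR with SLC4A5 was -0.30 with phase means subtracted, and with CLIC6 it was -0.12 by rank. Without follicular 1 and 3 it turned above 0 with KL (0.20), AQP1 (0.30) and F5 (0.17). It was then 0.84 with KCNJ13, 0.43 with SLC4A5, 0.43 with FOLR1 and 0.39 with CLIC6. Without 1 library at a time it ran from -0.075 to 0.35 with SLC4A5, -0.15 to 0.27 with CLIC6 and -0.10 to 0.47 with FOLR1. Its sign held with KCNJ13 (0.41 to 0.83), KL (-0.49 to -0.037), AQP1 (-0.49 to -0.020) and F5 (-0.70 to -0.075). With the principal component removed, TTR with KCNJ13 was 0.81. The cause of these changes was not tested. The median pairwise r ran from 0.07 to 0.38 over its alternatives. KCNJ13 has no value with the filter of 1 CPM or without luteal 1, 2, 4, 5 or follicular 5, since it then fell below the count filter. Depth limits OTX2, CLDN2 and KCNJ13 most, with at most 11, 3 and 40 reads in a library.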
